A study of Malus domestica with 2 samples.

Results

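Membrane transporters of nutrients, sugars and water were examined in the transcripts of apple pedicels, the stalks on which the fruits of a cluster hang. The lateral pedicel and the central pedicel of the apple Malus domestica, cultivar Saika, were each represented by 1 library, pyrosequenced on a GS-FLX instrument according to the labels. Both groups share the cultivar and differ in the position of the pedicel, and the title of the series calls the apple self-abscising. The sources used here do not give plant age, sampling date or the number of pedicels pooled. A gene model was taken as a transporter where its description in the authors' table, or its annotation on their sheets of differing genes, held the words transporter, permease, antiporter, aquaporin, major intrinsic or major facilitator, unless it also named auxin. The gene models were further selected on measured values, at least 1 sequence over both libraries or else an entry on a sheet, which gave 232 of 63541 gene models. No gene model was left out for auxin (0 cases).

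Water and solutes reach a fruit through the xylem and phloem of its pedicel, and in apple the phloem carries sorbitol and sucrose. Secondary transporters, among them the large major facilitator superfamily, move sugars, nitrate, phosphate or amino acids by letting protons or other ions flow down a gradient that proton-pumping ATPases build up. ABC transporters spend ATP directly, P-type ATPases pump cations, and aquaporins are passive channels for water and small neutral solutes.

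The 232 gene models included more than carriers of nutrients. By their annotations, 32 were ABC transporters, which export many kinds of compounds, and 27 were P-type ATPases. A further gene model was the mitochondrial protein import subunit Pam16 (MDP0000160495). On the sheets, MDP0000758317 was annotated as phosphate transporter traffic facilitator1, which in Arabidopsis helps phosphate transporters leave the endoplasmic reticulum. The largest class, 90 gene models, was annotated as major facilitators with no substrate named. Of these, MDP0000215486, MDP0000232764 and MDP0000296517 held a gene ontology term for oligopeptide transport on the sheets. No ammonium transporter entered, since none of 6 annotated gene models had a sequence.

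Counts were low throughout. The lateral library held 18368 mapped sequences and the central library 18483, so a count of 0 allows a share of up to 0.0163% of the lateral and 0.0162% of the central library. Of the 232 transporters, 225 had a sequence, 162 of them in the lateral and 172 in the central library, and 7 were kept through a sheet entry alone. The highest counts were 7 in the lateral and 5 in the central library. Exactly 1 sequence was found for 90 transporters, 43 times in the lateral and 47 times in the central library. These lie just inside the limit of the selection, and 539 further gene models with a transporter annotation, no sequence and no sheet entry lie just outside it. The counted units were contigs, per the file headers. Equal counts thus do not show equal expression, unequal counts do not show unequal expression, and the RPKM values share this limit. With 1 library a group, each difference below has no replicate check. In whole pedicels, fewer cells of a type and less RNA per cell cannot be told apart.

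Summed over all transporters, 242 sequences fell in the lateral and 263 in the central library. As shares these were 1.32% of the lateral library (95% exact Clopper-Pearson interval 1.16% to 1.49%) and 1.42% of the central library (1.26% to 1.60%). The intervals, which cover counting error only, overlap. Both libraries held a sequence of 109 transporters, or 48.4%, against 47.2% of all 18337 gene models with a sequence. The lateral library alone held 53 transporters (23.6%, against 26.1% of all gene models) and the central library alone 63 (28.0%, against 26.6%). The median log2 ratio of lateral over central values, scaled by library total with 0.5 added to each count, was 0.01 for transporters and 0.01 for all gene models.

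**Figure D1:**
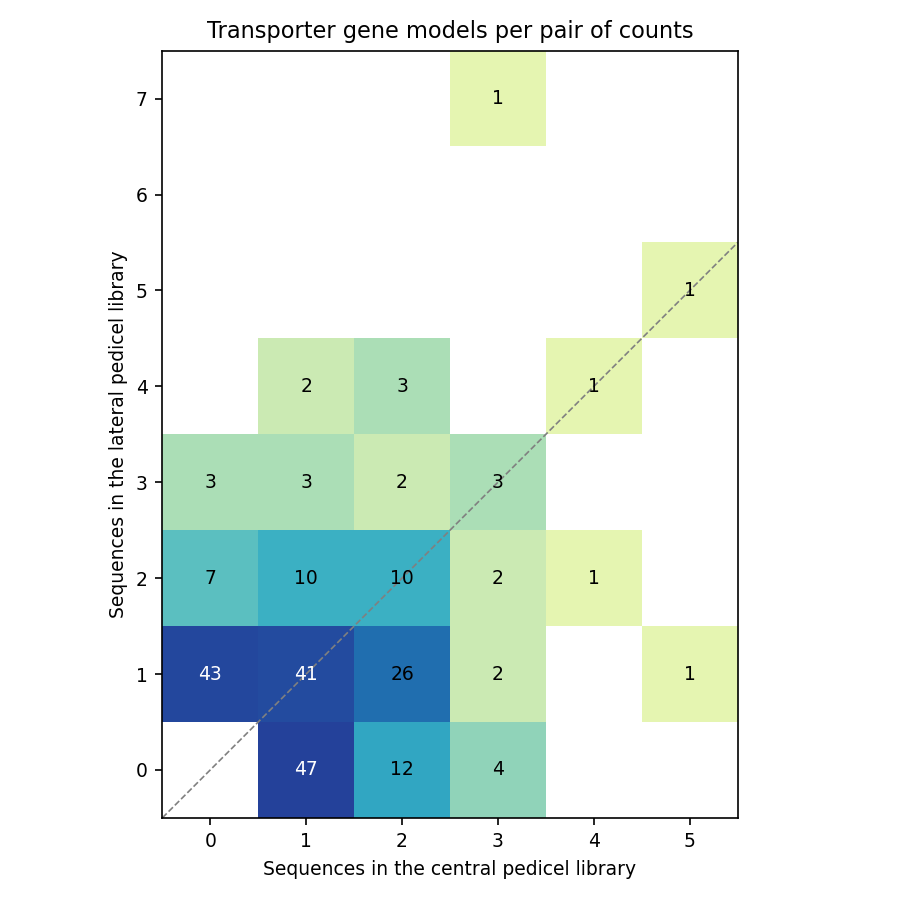
Number of transporter gene models (figure in each cell, colour on a log scale) by their count of sequences in the lateral library (vertical axis) and the central library (horizontal axis); the dashed line marks equal counts. Most gene models sit at 0 to 2 sequences, and 7 against 3 is the highest pair on the lateral side.

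A transporter with at least 4 sequences over both libraries was set against a 2-fold limit, as a description of these libraries. Of 32 such transporters, 6 (18.8%) were at least 2-fold higher in the lateral library, where 17.0% of all 2074 gene models with as many sequences were. In the other direction 3 of the 32 (9.38%) were at least 2-fold higher in the central library, against 16.1% of all gene models. The lateral count is near its background. The central count is below its own, and it rests on 3 gene models. With a minimum of 2 sequences, 16 of 135 transporters (11.9%) were higher in the lateral library, against 11.1% of all 10270 gene models, and 19 (14.1%) in the central library, against 10.8%. The larger side thus changed with the minimum.

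Of the 6, the amino acid/polyamine transporter MDP0000230263 had 7 lateral and 3 central sequences, a log2 ratio of 1.11. An amino acid permease, MDP0000145525, had 4 lateral and 1 central sequences (1.59), as had the major facilitator MDP0000119931. The other three had 3 lateral and 1 central sequences each (1.23), namely the P-type ATPase MDP0000043189 and the major facilitators MDP0000213770 and MDP0000652676. On the central side, the amino acid permease MDP0000298577 had 1 lateral and 5 central sequences (-1.87). The ABC transporter MDP0000204225 and the major facilitator MDP0000293045 each had 1 lateral and 3 central sequences (-1.21). Amino acid transporters and major facilitators thus stood on both sides.

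No transporter was called by the Fisher exact test with Benjamini-Hochberg adjustment (0 of 2 with at least 10 sequences), and 0% of all 24 gene models tested were called. The test compares the 2 libraries and not the 2 kinds of pedicel. Its unadjusted p was below 0.05 for 0 of 225 transporters at any count, against 0.0218% of all gene models with a sequence. The smallest was 0.124, for 3 lateral against 0 central sequences. With 3 sequences or fewer no split reaches 0.05, so for most transporters this outcome was fixed in advance. The negative binomial exact test of edgeR at an assumed biological coefficient of variation of 0.2, and also of 0.4, called 0 of the same 2 transporters, MDP0000183294 and MDP0000230263, and 0% of all 24 gene models. At such counts a missing call does not show that a transporter was expressed alike. In the authors' deposited table, Kal's Z-test has an FDR under 0.05 for 153 of 225 transporters (68.0%), against 67.6% of all gene models with a sequence. These include 89 of the 90 transporters with a single sequence. Its deposited statistic equals one computed with RPKM values taken as counts, with a largest gap of 4.26e-14. By direction, 68 were higher in the lateral library (30.2%, against 33.7% of all) and 85 in the central library (37.8%, against 34.0%).

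**Figure D2:**
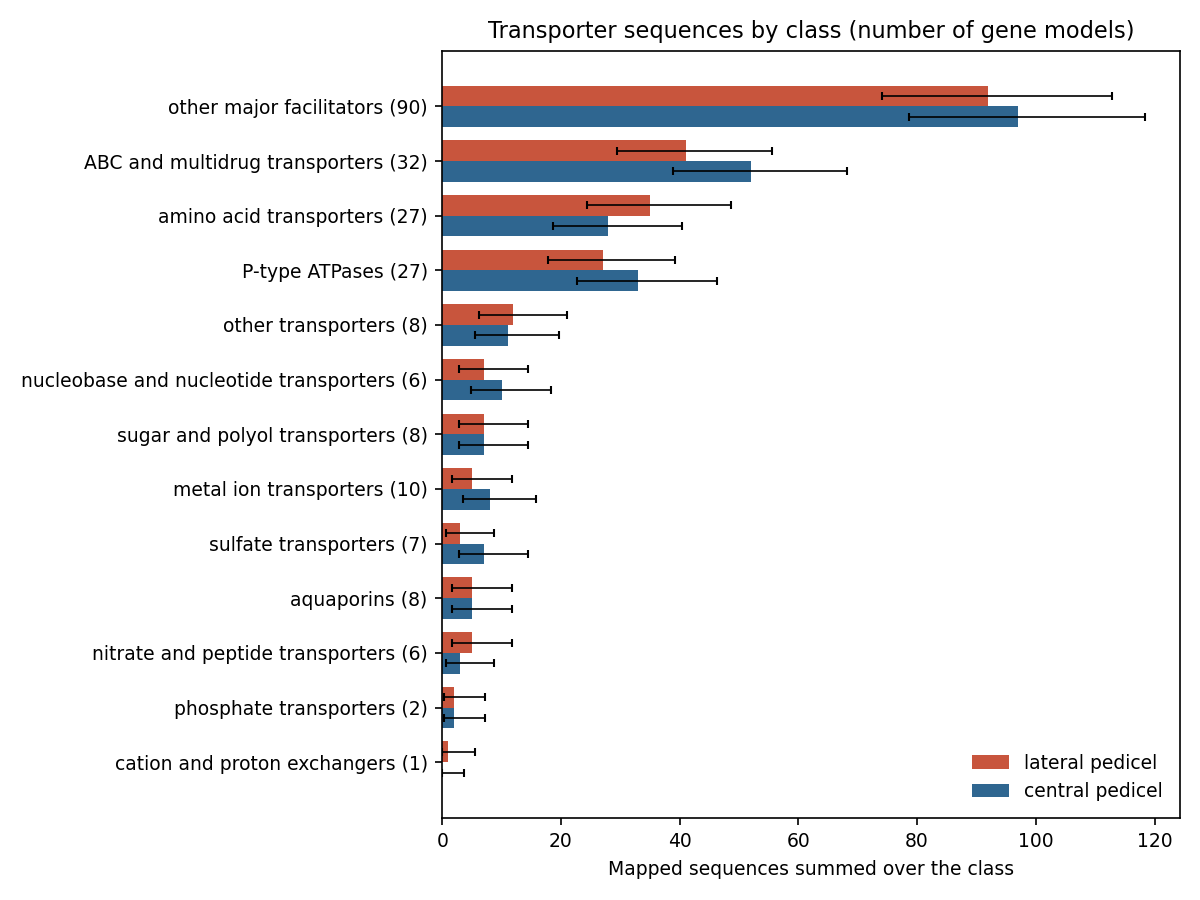
Mapped sequences summed over each class of transporters (horizontal axis, counts from 0) in the lateral (red, upper bar) and central (blue, lower bar) library, with the number of gene models in parentheses and 95% exact Poisson intervals as error bars. The intervals of the 2 libraries overlap in every class shown.

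Sugar carriers were few by annotation. The 8 gene models held 7 lateral and 7 central sequences. Sugar transporter 1, MDP0000193898, the homolog of a proton-coupled hexose carrier of Arabidopsis, had 2 lateral and 2 central sequences (55.3 lateral and 55.0 central RPKM, sequences per kilobase of gene model, scaled to a fixed library total). It was on the LP sheet, headed for the lateral pedicel, with an FDR of 4.18e-11. Sucrose transporter 4, MDP0000242783, whose Arabidopsis counterpart moves sucrose across the vacuole membrane, was also on the LP sheet (FDR 2.41e-10), yet it had 0 lateral and 1 central sequences. No sorbitol or polyol transporter was named as such by the annotations (0 gene models), so the carriers of the main phloem sugar alcohol of apple were not examined as a group. Classes were set by annotation words alone, and the function of each Arabidopsis match was not used. Polyol carriers may therefore stand among the major facilitators of unnamed substrate, which was not tested.

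Nucleotide-sugar transporters, which feed the Golgi with precursors of wall polysaccharides, made up the rest of the sugar class. The UDP-galactose transporter MDP0000296995 had 2 lateral and 1 central sequences. Another, MDP0000485007, had 1 lateral and 2 central sequences and stood on the LP sheet (FDR 2.76e-08). MDP0000147684 stood on the same sheet (FDR 3.64e-11) with no sequence in either library. MDP0000455174, on the CP sheet headed for the central pedicel, had 0 lateral and 1 central sequences (FDR 1.18e-08). MDP0000188309 and MDP0000647619 each had 1 lateral and 0 central sequences.

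Amino acid transporters were the class of known substrate with the most sequences, 35 lateral and 28 central over 27 gene models. The lateral library thus had 55.6% of them (95% exact interval 42.5% to 68.1%), and it had 49.8% of all mapped sequences. Of these gene models, 11 had more lateral, 9 more central and 5 equal counts. MDP0000230263, with 7 lateral and 3 central sequences, had the highest level per length of all transporters in the lateral library and in the mean of both, at 240.1 RPKM in the lateral and 102.3 RPKM in the central library. In the central library alone other transporters were higher, among them MDP0000298577 at 127.0 RPKM. The sequences of MDP0000230263 were all uniquely mapped, and the Fisher exact test gave it an unadjusted p of 0.225. Without this gene model the class held 28 lateral and 25 central sequences, a lateral share of 52.8%. The permease MDP0000310376 had 3 lateral and 0 central sequences, none of them uniquely mapped, so they may belong to a near-identical copy. MDP0000246948 and MDP0000290380 each had 2 lateral and 2 central sequences.

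Amino acid permeases stood on both sheets. Amino acid permease 2, MDP0000383777, which in Arabidopsis moves amino acids from xylem to phloem, was on the LP sheet with an FDR listed at 0, and had 1 lateral and 2 central sequences. Amino acid permease 6, MDP0000198702, was on the CP sheet with an FDR of 5.95e-14, and had 2 lateral and 0 central sequences. In both cases the counts of the whole table lay opposite to the sheet. The remaining entries of this class, MDP0000119812 and MDP0000328893, share an Arabidopsis match, were both on the LP sheet, and had no sequence in either library.

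Nitrate and peptide transporters, by annotation words, held 5 lateral and 3 central sequences over 6 gene models. The lateral share was 62.5%, with an exact interval of 24.5% to 91.5%. MDP0000215486, MDP0000232764 and MDP0000296517, which held the oligopeptide transport term, were counted with the major facilitators and not here. They had 1 lateral and 1 central, 2 and 2, and 0 and 3 sequences. Nitrate transporter 1:2, MDP0000281790, a low-affinity nitrate carrier in Arabidopsis, had 0 lateral and 1 central sequences and was on the CP sheet (FDR 2.47e-07). The oligopeptide transporter family, whose members also carry metal chelates, supplied the other 5. MDP0000555632 had 2 lateral and 0 central sequences, and MDP0000555633, which has the next identifier, had 1 lateral and 0 central. MDP0000555633 was on the LP sheet as YELLOW STRIPE like 6, a carrier of metal chelates, with an FDR listed at 0. MDP0000290182 had 1 lateral and 1 central sequence.

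Sulfate transporters were a class in which no gene model had more lateral than central sequences (0 of 6 with a sequence). They held 3 lateral and 7 central sequences, a lateral share of 30.0% with an exact interval of 6.67% to 65.2%, which includes the 49.8% of all sequences. Sulfate transporter 3;1, a plastid sulfate importer in Arabidopsis, matched 2 gene models on the CP sheet. MDP0000085223 had 0 lateral and 2 central sequences, with an FDR listed at 0. MDP0000216466 had 1 lateral and 1 central sequence, with an FDR of 2.54e-11. Sulfate transporter 3;4, MDP0000317974, was the third on the CP sheet (FDR 5.67e-06) and had no sequence in either library. No sulfate transporter was on the LP sheet (0 entries). MDP0000141450 and MDP0000145668, on neither sheet, had 1 lateral and 1 central sequence each.

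Phosphate transporter 1;7, MDP0000508371, of the family that takes up phosphate across the plasma membrane, was on the CP sheet with an FDR of 1.93e-12. The traffic facilitator MDP0000758317 was there too, with 4.96e-12. Each had 1 lateral and 1 central sequence, so the counts of the whole table show no lean for either.

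Metal transporters held 5 lateral and 8 central sequences over 10 gene models, a lateral share of 38.5% (13.9% to 68.4%). Magnesium transporter 3, MDP0000311438, was on the LP sheet (FDR 5.17e-06) with 1 lateral and 2 central sequences. The CP sheet held zinc transporter 1, MDP0000136892, with an FDR listed at 0, and MDP0000387146, annotated as an oligosaccharyltransferase complex or magnesium transporter protein, with an FDR of 1.50e-09. Neither of these CP entries had a sequence. The copper transporter MDP0000889819 had 1 lateral and 1 central sequence on a short gene model of 459 bases, or 118.6 RPKM in the lateral and 117.9 RPKM in the central library. Nickel/cobalt transporter MDP0000170069 and zinc/iron permease MDP0000256005 also had 1 lateral and 1 central sequence.

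Aquaporins, annotated as major intrinsic proteins, held 5 lateral and 5 central sequences over 8 gene models, each with at most 1 sequence in a library. MDP0000905147 and MDP0000927246 had 1 lateral and 1 central sequence each, 3 others had only a lateral one and 3 only a central one. Of the 10 sequences, 5 (50.0%) were uniquely mapped, against 92.5% over all transporters and 89.3% over all gene models. Aquaporin genes form families of near-identical copies, so the split of these sequences over the 8 gene models is uncertain. Only 8 of 48 gene models annotated as aquaporins had a sequence, a share of 16.7%, beside 28.9% of all gene models. No aquaporin was on a sheet (0 entries).

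P-type ATPases held 27 lateral and 33 central sequences over 27 gene models. MDP0000181085 had 2 lateral and 4 central sequences, and MDP0000602147 had 2 lateral and 2 central. P-type ATP-ase 1, MDP0000278185, which brings copper into the plastid in Arabidopsis, was on the LP sheet (FDR 3.11e-07) with 1 lateral and 1 central sequence. MDP0000718381 had 0 lateral and 2 central sequences and was on neither sheet, although the authors deposited a log2 ratio for it. The single potassium transporter, MDP0000309763, had 1 lateral and 0 central sequences, and that sequence was not uniquely mapped.

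ABC transporters held 41 lateral and 52 central sequences over 32 gene models, none of them on a sheet (0 entries). MDP0000183294 had 5 lateral and 5 central sequences, MDP0000260550 had 4 lateral and 4 central, and MDP0000320690 had 3 lateral and 3 central. MDP0000903999 had 4 lateral and 2 central sequences, and MDP0000286528 had 3 lateral and 2 central. These gene models are long, with a median of 3731 bases, so their high counts stand beside a median level of 21.4 RPKM, below the 28.9 RPKM of all transporters with a sequence. MDP0000230263, the gene model highest per length in the mean of both libraries, has 1587 bases.

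Nucleobase and nucleotide transporters held 7 lateral and 10 central sequences over 6 gene models. The ATP/ADP transporter MDP0000319788 had 3 lateral and 3 central sequences and was on the LP sheet (FDR 1.62e-06). The xanthine/uracil permease MDP0000221451 had 0 lateral and 3 central sequences, and MDP0000320308 had 2 lateral and 1 central. Among the remaining transporters were 5 bicarbonate transporters, the family that in Arabidopsis includes borate exporters, with 9 lateral and 8 central sequences. MDP0000308025 had 3 lateral and 2 central sequences, MDP0000877937 had 2 lateral and 2 central, and MDP0000142911 had 1 lateral and 2 central. NAD+ transporter 2, MDP0000269015, and a nodulin MtN21/EamA-like transporter, MDP0000337873, were on the CP sheet (FDR 7.05e-06 and 2.22e-10). The NAD+ transporter had 1 lateral and 1 central sequence, and the EamA-like gene model had 1 lateral and 2 central.

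The 90 major facilitators of unnamed substrate held 92 lateral and 97 central sequences. Of them, 32 had more lateral, 41 more central and 16 equal counts. MDP0000134734 had 4 lateral and 2 central sequences and was on the LP sheet (FDR 8.39e-06). MDP0000217095, on neither sheet, also had 4 lateral and 2 central sequences. MDP0000201070 had 3 lateral and 3 central sequences, and MDP0000274582 had 2 lateral and 3 central. On the LP sheet, MDP0000787701 had 2 lateral and 0 central sequences (FDR 5.23e-08), and MDP0000150156 had none (FDR 3.83e-08). The CP sheet held 4 of this class. MDP0000296517 had 0 lateral and 3 central sequences (FDR 1.89e-07), and MDP0000000999 had 1 lateral and 2 central (FDR 1.33e-05). MDP0000215486, with an FDR listed at 0, had 1 lateral and 1 central sequence, and MDP0000232764 (FDR 3.82e-10) had 2 lateral and 2 central.

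**Figure D3:**
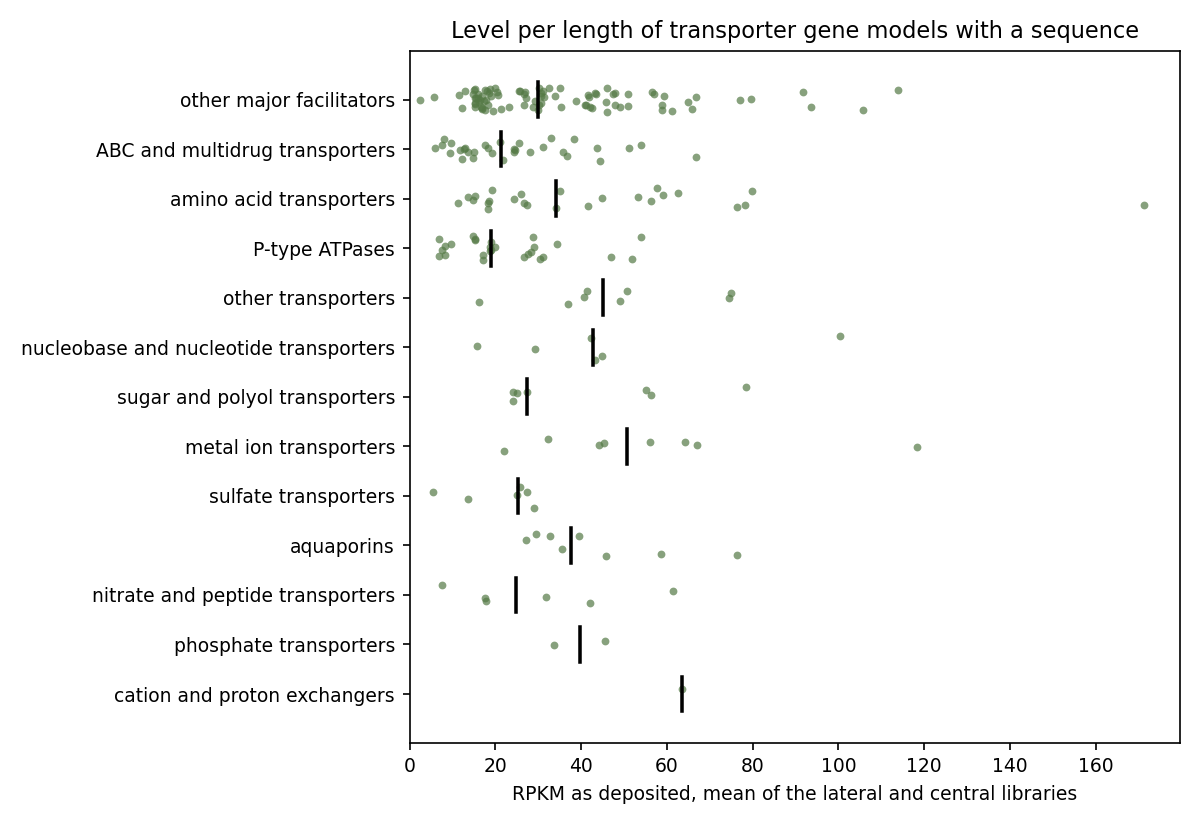
Level per length of the 225 transporters with a sequence, as the mean of the lateral and central RPKM values deposited by the authors (horizontal axis, linear), by class. Each point is a gene model and each black line the median of its class; MDP0000230263 stands alone at the right, at 171.2 RPKM.

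Levels per length ranged from 2.46 to 171.2 RPKM over transporters with a sequence, as means of both libraries, with a median of 28.9 RPKM against 35.9 RPKM over all gene models with a sequence. Transporter gene models with a sequence were long, with a median of 1773 bases against 1353 bases. The lowest class medians were 19.0 RPKM for P-type ATPases and 21.4 RPKM for ABC transporters. As 1 sequence on a short gene model already gives a high RPKM, the class medians depend on length as well as on counts.

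Beside these values stand the authors' sheets of differing genes, made with NOISeq per the file headers. The 30 transporters on them had 14 entries on the LP sheet and 16 on the CP sheet. These sheets helped to choose the members (15 were found through them alone), so the counts are a description. Of the 232 transporters, 6.03% were on the LP and 6.90% on the CP sheet, against 1.17% and 1.33% of all gene models. Nothing is read from this gap, since a sheet entry was a ground for selection. By class, the 14 LP entries were 4 sugar and nucleotide-sugar transporters, 3 amino acid transporters, 3 major facilitators, and 1 each of magnesium transporter 3, YELLOW STRIPE like 6, P-type ATP-ase 1 and the ATP/ADP transporter. The 16 CP entries were 4 major facilitators, 3 sulfate transporters, 2 entries of the phosphate class, 2 of the metal class (zinc and magnesium), and 1 each of nitrate transporter 1:2, amino acid permease 6, a nucleotide-sugar transporter, NAD+ transporter 2 and the EamA-like transporter. Sugar, amino acid, metal, nitrate and peptide, and major facilitator classes thus had entries on both sheets. The difference between the sheets was not tested.

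Gene ontology terms on the sheets, which were not used to choose the members, were given for 7 of the 14 LP and 13 of the 16 CP transporters. The term for transmembrane transport was held by 6 LP and 7 CP transporters, among 13 of all 741 LP and 9 of all 844 CP entries. The term for transmembrane transporter activity was held by 3 LP transporters and 1 CP transporter. The term for oligopeptide transport was held by 4 CP transporters and no LP entry of any kind (0 of 741). These 4 were nitrate transporter 1:2 and the major facilitators MDP0000215486, MDP0000232764 and MDP0000296517. Together they had 3 lateral and 7 central sequences. As all of them were CP entries, no lean is read from this sum. MDP0000215486 had 1 lateral and 1 central sequence and MDP0000232764 had 2 and 2. MDP0000296517 had 0 lateral and 3 central sequences, and nitrate transporter 1:2 had 0 and 1.

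**Figure D4:**
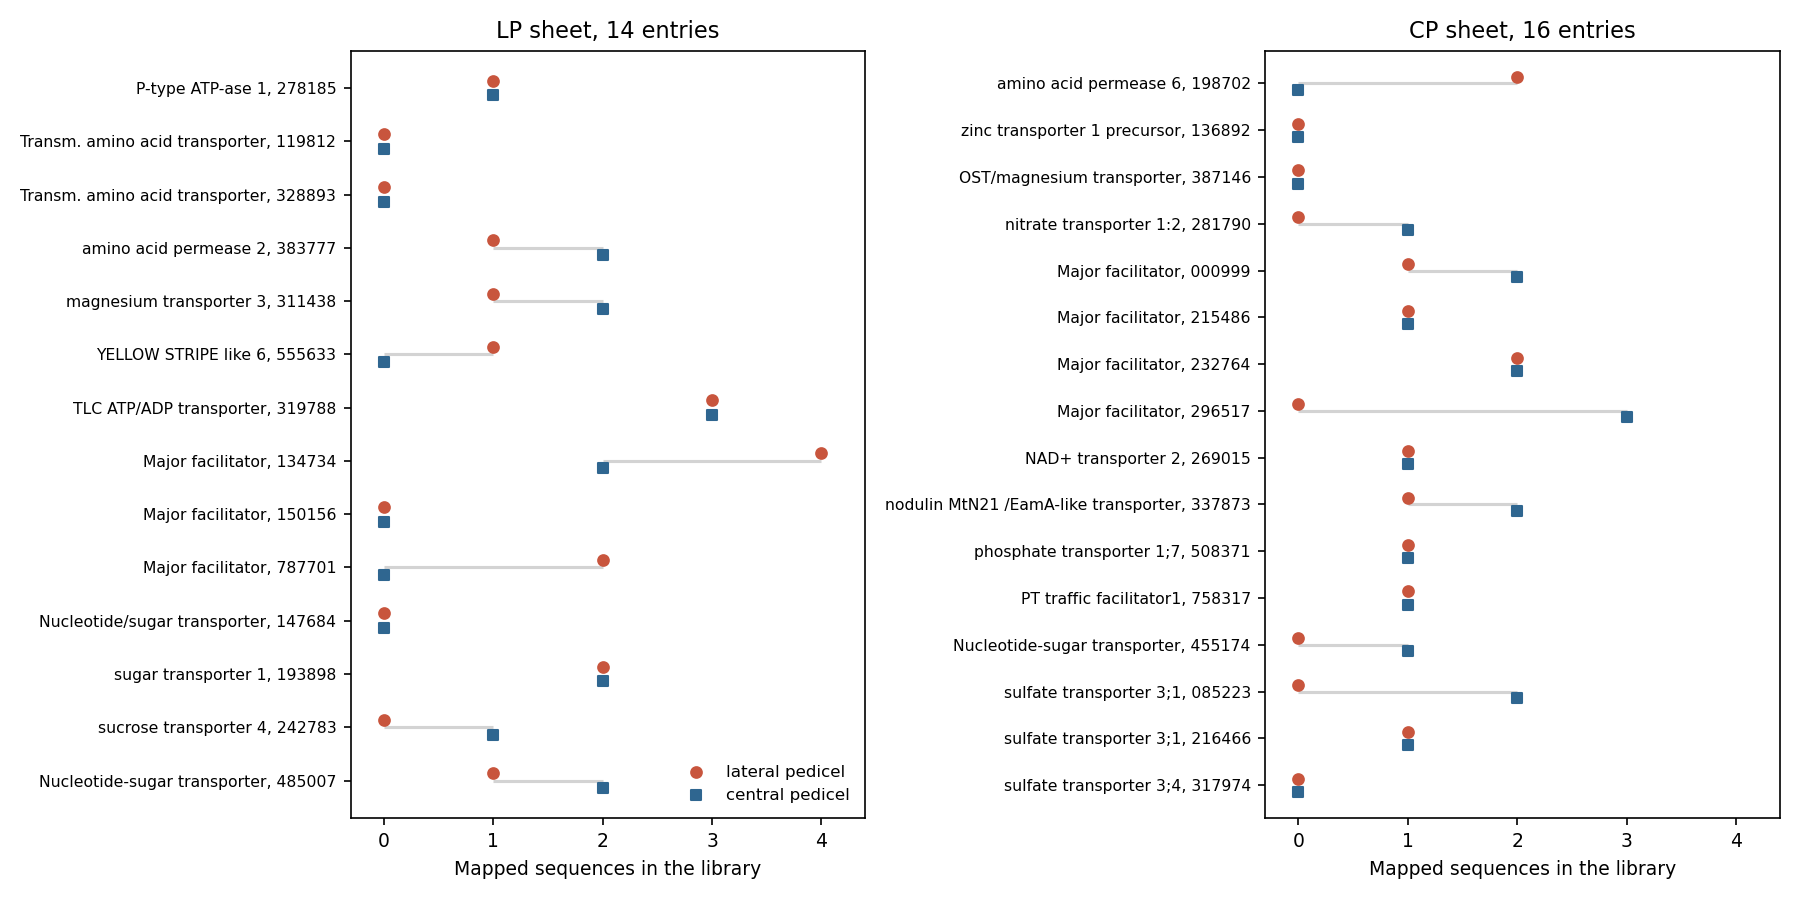
Sequences in the lateral (red circles) and central (blue squares) library (horizontal axis, counts) for the 14 transporters on the LP sheet (left) and the 16 on the CP sheet (right), labelled by the sheet's annotation and the last digits of the identifier; points are offset vertically for legibility. Many pairs coincide, and 4 LP and 3 CP entries are at 0 in both libraries.

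The counts of the whole table had the direction of the sheet for 3 of 14 LP and 6 of 16 CP transporters. The same split over all entries of each sheet is not given, so nothing particular to transporters is read from it. Of the 14 LP transporters, 3 had more lateral sequences, 4 more central, 3 equal numbers and 4 none, with 16 lateral and 15 central sequences in all. Among the 16 CP transporters, 1 had more lateral sequences, 6 more central, 6 equal numbers and 3 none, with 11 lateral and 18 central sequences in all. No sheet transporter had more than 4 sequences in a library. The sources used here name NOISeq for these FDR values but do not give the counts it was run on.

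**Figure D5:**
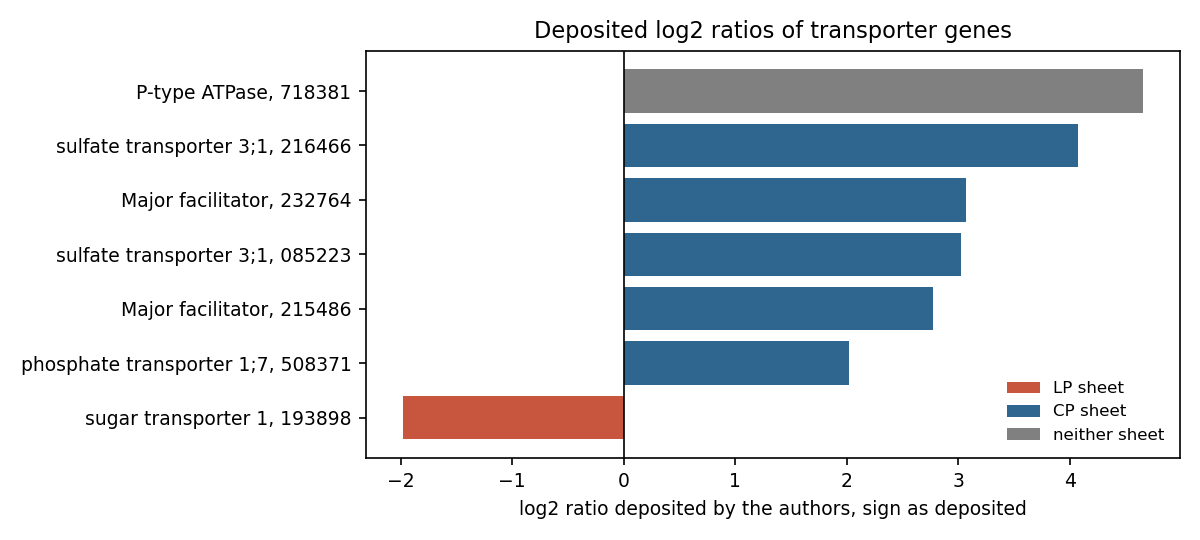
Log2 ratios deposited by the authors for 7 transporters (horizontal axis, sign as deposited), labelled by annotation and the last digits of the identifier and coloured by sheet. The CP entries and the P-type ATPase on neither sheet are positive, and sugar transporter 1 of the LP sheet is negative.

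The authors' deposited ratios covered 7 transporters. The file states lateral over central, but the signs oppose the sheet names if read that way, so no direction is drawn from them. In the authors' deposited table of ratios, the P-type ATPase MDP0000718381 had 4.66, the sulfate transporter 3;1 entries MDP0000216466 and MDP0000085223 had 4.07 and 3.03, and the major facilitators MDP0000232764 and MDP0000215486 had 3.07 and 2.77. Phosphate transporter 1;7 had 2.02 and sugar transporter 1 had -1.98. Of the 7, MDP0000718381 and MDP0000085223 had unequal counts in the whole table, both with 0 lateral and 2 central sequences, and the other 5 had equal counts.

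Other transport genes, outside the words that chose the transporters, were counted in the same way. Proton pump subunits, which energise secondary transport, held 15 lateral and 17 central sequences over 14 gene models. Ion channels held 26 lateral and 26 central over 23, symporters and exchangers 38 lateral and 33 central over 35, and mitochondrial substrate carriers 51 lateral and 61 central over 58. The lateral shares of these groups, from 45.5% to 53.5%, have exact intervals that include 49.8%. On the sheets, 8 of these genes were among the 741 LP entries and 6 among the 844 CP entries. A sheet entry was again a ground for selection, so nothing is read from these counts. The vacuolar calcium carrier cation exchanger 1, MDP0000141538, was on the LP sheet with an FDR listed at 0 and had 3 lateral and 1 central sequences. The mitochondrial pore voltage dependent anion channel 1 had 2 entries on the LP sheet, MDP0000162816 with 1 lateral and 4 central sequences and MDP0000250518 with 4 lateral and 1 central. Among the proton pump genes, vacuolar proton ATPase A1 (MDP0000800032) was on the LP sheet with no sequence. Vacuolar proton ATPase A2 (MDP0000330134) was on the CP sheet with 1 lateral and 2 central sequences.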

How the data were processed

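Messenger RNA of 1 lateral and 1 central pedicel sample was sequenced. The authors deposited counts of mapped sequences per gene model, counts of uniquely mapped ones, and RPKM values, found to equal count over length and library size. The mapped input was a trimmed set of contigs, per the file headers. The log2 ratios, p-values and FDR values used were deposited by the authors, and the file headers name NOISeq and Kal's Z-test. The sources used here give neither mapper nor build, and 12 further library columns were not used.

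Transporters and their classes were found by words in the annotations, chosen with earlier results of these data known, and P-type ATPases were made a class of their own after the annotations were seen. Named are all transporters on a sheet or with a deposited ratio, the 15 with the most sequences, and up to 3 of each class with the most, ties by identifier. Genes past the 2-fold limit or otherwise singled out were added after their values were seen. Words for carrier proteins also found acyl and biotin carriers, which were left out of the mitochondrial carriers.

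A two-sided Fisher exact test compared each gene model's count with all others of the libraries, with Benjamini-Hochberg adjustment over those with at least 10 sequences. Calls needed a 2-fold difference and an adjusted p under 0.05. The test was also tried on simulated data, and no support for the results is drawn from that trial. The quasi-likelihood test of edgeR needs replicates, so the exact test of that tool with an assumed spread was an alternative. Scaling, the count minimum, the pseudocount, the fold, unique counts and the sheet filters were varied. Contigs of 1 transcript are not independent, which intervals ignore. Identifiers had 0 matches in the reference gene table, so no coordinates or sequences are given. No marker specific to pedicels was fixed, so the tissue labels were not checked.

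Tools were Python 3.11.15, numpy 2.4.6, pandas 2.3.3, scipy 1.17.1, statsmodels 0.14.6, matplotlib 3.10.9, R 4.3.3 and edgeR 4.0.16.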

Additional observations from a re-analysis of the deposited data

How the results depend on the processing

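No paired analysis was possible because each group has 1 library, which also leaves no replicate to drop. The split of P-type ATPases was chosen after seeing the data. Of 57 alternative values, 45 stayed within 1.5 times the count or within the interval of the share, 12 moved, all of them counts of transporters past the fold, and 0 reversed.

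The count of 9 transporters past the fold, 6 higher in the lateral and 3 in the central library, followed the settings by their construction. With at least 2 sequences there were 35 (16 lateral, 19 central), so the larger side changed, and with at least 3 there were 16 (9 lateral, 7 central). With at least 6 there were 2 (1 lateral, 1 central), and at a fold of 3 there were 3 (2 lateral, 1 central). With 1 added to each count the central side held 1. Calls by the exact tests stayed at 0 in every setting run. For most transporters no call was possible at these counts, so this does not show stability. The lateral share of transporter sequences, 47.9%, ranged from 46.7% to 48.9%. Counts of a few contigs limit every comparison, and a difference in a transporter with 1 or 2 sequences was not detectable at such contig counts. The limit also holds at higher counts. For MDP0000230263, 7 lateral against 3 central sequences gave an unadjusted Fisher p of 0.225.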

Other observations

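Some deposited ratios of transporters stood in simple proportion to each other. In the authors' deposited table of ratios, that of the P-type ATPase MDP0000718381 corresponds to a 25.2-fold difference and that of sulfate transporter 3;1 (MDP0000216466) to a 16.8-fold one, so the first fold is 1.5 times the second. The fold of the major facilitator MDP0000232764 is 0.5 times that of MDP0000216466. In the whole table MDP0000216466 had 1 lateral and 1 central sequence and MDP0000232764 had 2 lateral and 2 central, so these counts alone do not give the deposited ratios.

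MDP0000555632 and MDP0000555633 have consecutive identifiers and the same oligopeptide transporter annotation, on short gene models of 885 and 648 bases. Each had sequences in the lateral library (2 and 1) and none in the central library, where a count of 0 allows up to 3 sequences. Of these neighbours in numbering, MDP0000555633 was on the LP sheet and MDP0000555632 on neither sheet.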
